A study of Homo sapiens with 7 samples.

Results

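Some of the DNA intervals that H3K27ac HiChIP joined into loops were also joined to themselves, because both ends of a read pair fell inside the same interval. The intervals with the most such pairs are described here for 2 human cancer cell lines, Ishikawa and T-47D. An interval is called an anchor, a read pair with both ends in it is a self-contact read pair, and an anchor counted as having strong self contact when it lay on an autosome and held 50 or more of these pairs. By that rule 843 of 95108 autosomal Ishikawa anchors (0.886%) and 1279 of 20723 autosomal T-47D anchors (6.17%) had strong self contact, 2122 in all among the 158085 autosomal anchors of the series. The anchors were chosen by their self-contact read pairs, so those values are given as a description and no test was made on them. The list of the prostate line LNCaP held no self-contact rows, and its 42254 autosomal anchors serve only as positions to compare with.

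The series holds 7 samples. Ishikawa is an endometrial adenocarcinoma line with 4 samples, 2 given the vehicle DMSO for 1 h and 2 given 10 nM beta-estradiol (E2) for 1 h, and DpnII was its restriction enzyme. T-47D is a ductal breast carcinoma line with 1 sample, and LNCaP is a prostate carcinoma line with 2 samples, both cut with MboI, and the labels give no treatment for either. The study kept cells in hormone-depleted medium for days before estrogen inductions. Samples of a line were merged into 1 loop list before deposit, so every value below belongs to 1 list per line, has no replicate error and carries no test, and intervals cover counting error only. Both enzymes cut at GATC, but sonication, read length and sequencing depth changed together with the cell line, so a difference between Ishikawa and T-47D cannot be told apart from these steps. The Ishikawa list held 332202 rows and 1512486 read pairs, the T-47D list 57139 rows and 660327 read pairs, and the lowest count of a row was 3 in both.

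Acetylation of lysine 27 of histone H3 marks the nucleosomes around active promoters and enhancers. HiChIP cuts and religates crosslinked chromatin and then pulls down fragments with an antibody, here to H3K27ac, so that read pairs report which acetylated regions lay close together. Long acetylated stretches often sit at genes that define a cell's identity, among them the luminal breast factors GATA3 and FOXA1 and the Mullerian duct factors PAX8 and EMX2.

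The edges of the anchors follow the restriction site. The T-47D anchor with the most self contact, in an intron of GSE1 at chr16:85491053-85508912 on hg19, opened on GATC and stopped right before another GATC, shown in capitals in its first 80 bases and in the 80 bases around its end (plus strand of GRCh37).

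GSE1 intron anchor, start: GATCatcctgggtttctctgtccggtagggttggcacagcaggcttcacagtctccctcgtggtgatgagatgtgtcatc
GSE1 intron anchor, end: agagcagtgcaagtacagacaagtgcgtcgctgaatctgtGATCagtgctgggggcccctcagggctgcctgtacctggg

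A pair of other sequences is shown because they lie in the Ishikawa anchors ranked first and joint 3rd, the richest in one short unit. These 150 bases lie at chr10:42363383-42363532 and chr16:46402933-46403082, and capitals mark each copy of the 5 bases ATTCC.

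chr10 anchor: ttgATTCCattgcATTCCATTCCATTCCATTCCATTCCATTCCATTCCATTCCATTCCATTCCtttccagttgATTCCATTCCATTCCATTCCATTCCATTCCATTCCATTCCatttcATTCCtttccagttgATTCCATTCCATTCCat
chr16 anchor: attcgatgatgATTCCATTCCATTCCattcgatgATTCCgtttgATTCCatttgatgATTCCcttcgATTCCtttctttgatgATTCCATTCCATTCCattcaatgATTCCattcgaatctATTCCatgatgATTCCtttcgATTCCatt

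The stretch on chromosome 10 held 23 copies and that on chromosome 16 held 14. Over the whole anchor, the 5 bases on either strand occurred 85.8 times per kb on chromosome 10 and 45.6 times per kb on chromosome 16, against a median of 1.98 per kb over the Ishikawa anchors with strong self contact. These short tandem units are those of pericentromeric satellite DNA.

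Promoters are shown for 3 genes held by strong anchors of both lines, LAMA5, RPL41 and AMOTL2, and for 1 marker gene of each line, PAX8 for Ishikawa and FOXA1 for T-47D. Each stretch is the 150 bases before the 5′ end of the GENCODE gene record, on the gene's own strand of GRCh37, with CpG dinucleotides in capitals.

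LAMA5, chr20:60942369-60942518, minus strand: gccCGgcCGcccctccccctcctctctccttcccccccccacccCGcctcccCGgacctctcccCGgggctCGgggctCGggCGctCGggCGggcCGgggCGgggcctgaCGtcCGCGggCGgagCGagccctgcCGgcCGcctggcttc
RPL41, chr12:56510224-56510373, plus strand: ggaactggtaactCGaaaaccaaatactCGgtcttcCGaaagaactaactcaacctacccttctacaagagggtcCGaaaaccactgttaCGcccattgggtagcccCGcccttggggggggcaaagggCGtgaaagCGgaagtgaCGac
AMOTL2, chr3:134094322-134094471, minus strand: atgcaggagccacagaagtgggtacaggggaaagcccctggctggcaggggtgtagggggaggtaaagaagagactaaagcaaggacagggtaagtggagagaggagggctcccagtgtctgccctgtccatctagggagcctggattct
PAX8, chr2:114036499-114036648, minus strand: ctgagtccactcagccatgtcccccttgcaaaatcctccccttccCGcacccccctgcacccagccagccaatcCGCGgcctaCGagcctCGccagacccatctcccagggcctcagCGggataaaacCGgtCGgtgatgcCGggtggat
FOXA1, chr14:38065265-38065414, minus strand: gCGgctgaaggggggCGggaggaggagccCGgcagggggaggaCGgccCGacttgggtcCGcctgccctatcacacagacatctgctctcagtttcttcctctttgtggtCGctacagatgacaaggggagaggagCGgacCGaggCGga

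LAMA5 held 19 CpG in these bases, FOXA1 10, PAX8 9, RPL41 9 and AMOTL2 none, beside a median of 9 over the starts of 19229 autosomal protein-coding gene records. The motif GGGCGG, read on both strands, was present in LAMA5, RPL41 and FOXA1 and in 43.2% of all these starts.

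The strong anchors held a larger part of the self-contact read pairs than of the anchor length, which comes with choosing them on these pairs. In Ishikawa the 843 anchors covered 15.4 Mb, 2.74% of the length of all autosomal anchors, and held 69210 of 471555 self-contact read pairs (14.7%). In T-47D the 1279 anchors covered 5.40 Mb, 9.16% of the anchor length, and held 122117 of 305087 pairs (40.0%). A self-contact row of any size was present at 49.8% of Ishikawa anchors and 71.0% of T-47D anchors, with a median of 6 and 11 read pairs at those that had one.

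The anchors with strong self contact were wide in Ishikawa and narrow in T-47D. Their median width was 17.2 kb in Ishikawa (95% binomial interval of the median 16.9 to 17.6), against 5.10 kb over all Ishikawa anchors, and 3.70 kb in T-47D (3.6 to 3.81) against 2.61 kb. They spanned 7.79 to 50.3 kb in Ishikawa and 1.27 to 21.5 kb in T-47D. Across anchors with a self-contact row, Spearman's rho between read pairs and width was 0.597 in Ishikawa (n = 47360) and 0.352 in T-47D (n = 14719). With the number of GATC fragments in the anchor it was 0.668 and 0.567, and all points of a line share 1 library pool and its depth. In Ishikawa no anchor under 5 kb reached 50 read pairs, 0.0673% of those of 5 to 10 kb did, and 86.4% of the 44 anchors of 30 kb or more did. In T-47D 5.03% of anchors under 5 kb and 28.4% of those of 5 to 10 kb did.

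**Figure D1:**
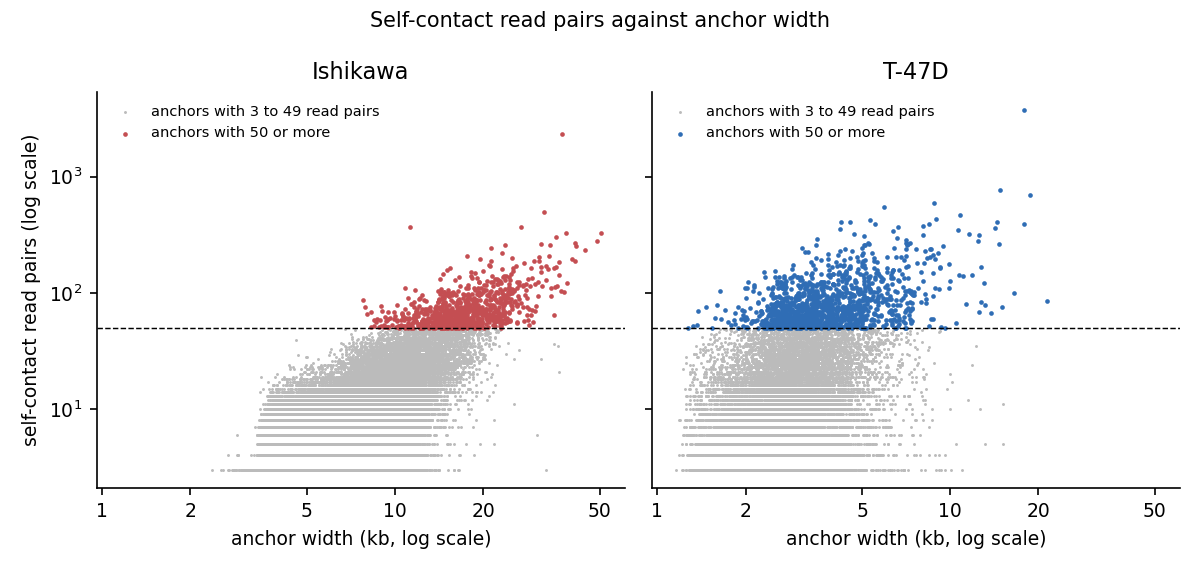
Self-contact read pairs (vertical, log scale) against anchor width in kb (horizontal, log scale) for every autosomal anchor with a self-contact row, grey below 50 read pairs and coloured from 50 up, with the dashed line at 50. The coloured Ishikawa points start at 7.79 kb, whereas the T-47D points start at 1.27 kb, and 1 anchor per line stands far above the others (2315 and 3741 read pairs).

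Per kb of width the order of the lines turned the other way. Strong anchors of T-47D held a median of 20.7 self-contact read pairs per kb (20 to 21.2), with a range from 3.96 to 209. Those of Ishikawa held 4.12 per kb (4.01 to 4.18), from 1.85 to 62.5. Per GATC fragment the medians were 7.89 and 1.59 read pairs. Anchors of 10 to 49 read pairs held 6.69 per kb in T-47D and 1.95 per kb in Ishikawa, with median widths of 2.91 and 9.27 kb. Both sets were chosen on read pairs, and the median read pairs of the lines were close. They were 72 in T-47D and 67 in Ishikawa at the strong anchors, and 19 and 16 below. The gap per kb therefore largely restates the gap in width. Across anchors with a self-contact row, rho between read pairs per kb and width was 0.197 in Ishikawa (n = 47360) and 0.026 in T-47D (n = 14719).

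At the threshold the anchors on both sides were alike in width. In Ishikawa 43 anchors held 48 read pairs and 38 held 49, with median widths of 14.1 and 14.8 kb, and just inside 34 held 50 and 36 held 51, with medians of 14.8 and 14.5 kb. In T-47D 56 anchors held 48 and 41 held 49, at 3.33 and 2.96 kb, and 47 held 50 and 42 held 51, at 3.05 and 3.41 kb.

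The Ishikawa anchor with the most self contact was the satellite anchor at chr10:42359813-42396845, 37.0 kb wide, with 2315 read pairs or 62.5 per kb. It lay between genes, 712 kb from the nearest protein-coding start, that of ZNF33B, and it held only 17 GATC fragments where 44 was the median. Of its 50-base windows, 26.4% occurred again in the genome, against a median of 4.61% over the strong Ishikawa anchors. The next was chr1:17024241-17056372 with 497 read pairs and 15.5 per kb, between genes. Then came a pair with 370 read pairs each, the satellite anchor at chr16:46399613-46410850 (32.9 per kb, 62.5% of windows repeated) and chr1:144984693-145011536 in PDE4DIP (13.8 per kb), a gene for a centrosome and Golgi protein.

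The named genes followed. The widest anchor of the list, 50.3 kb at chr17:46647135-46697467, held 327 read pairs and the promoters of HOXB3, HOXB4, HOXB5, HOXB6, HOXB7 and HOXB8, homeobox genes of body axis patterning. PWWP2B at chr10:134190159-134228615 had 325, and SLC14A2, a urea transporter gene, had 305 at chr18:43190793-43226275. MECOM, which codes for a zinc finger transcription factor, had 279 at chr3:168950026-168998908, in an intron of the gene, and 60 partner anchors. CUEDC1 at chr17:55944031-55985322 had 270 and BMAL2, a circadian clock gene, had 262 at chr12:27510667-27542276. Read pairs per kb of these 6 anchors ran only from 5.71 at MECOM to 8.60 at SLC14A2. After the 4 anchors with 370 or more read pairs, the highest value per kb was 11.7, at chr2:91788826-91806432 between genes.

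In T-47D the GSE1 intron anchor at chr16:85491053-85508912 held 3741 self-contact read pairs, or 209 per kb, 15.3 times the median of the 6 T-47D anchors of 15 to 20 kb, itself among them. GSE1 codes for a protein found with histone deacetylase co-repressor complexes, and the anchor's centre lay 89.6 kb from the nearest GSE1 start. It also had 64 partners and 3766 read pairs to other anchors. An intron anchor of CBFA2T3, a co-repressor gene, came next with 760 read pairs at chr16:88983546-88998354 (51.3 per kb). The anchor over FOXA1, a pioneer factor of luminal breast cells, and TTC6 followed with 692 at chr14:38050467-38069185 (37.0 per kb).

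The other strong T-47D anchors mixed promoters with sites between genes. Between genes lay chr11:101211754-101220525 with 589 read pairs, 110 kb from the start of TRPC6, and chr10:9238406-9247314 with 430. The nearest protein-coding start to the latter was that of GATA3, but it was far away, at -1142.5 kb from the anchor's centre. KRT19, a keratin of simple epithelia, had a start 6.48 kb from the centre of chr17:39688060-39694019, which held 545. Promoter anchors were those of PRLR, the prolactin receptor gene, with 468 at chr5:35224133-35234920, of FLII and MIEF2 with 425 at chr17:18159643-18164943, and of ZBTB7B, a transcription factor gene, with 410 at chr1:154971890-154986387. A second GSE1 intron anchor at chr16:85602206-85606453 had 407 and, at 95.8, the second highest value per kb. Per kb it was followed by the KRT19 anchor at 91.4, SEPTIN9 at 89.1 (404 read pairs, chr17:75281194-75285727) and PARL at 83.9 (354 read pairs, chr3:183562047-183566266), genes for a cytoskeletal septin and a mitochondrial protease.

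Many of the strong anchors held promoters, taken as 500 bp centred on each GENCODE start site. A protein-coding promoter was present in 379 of 843 Ishikawa anchors (45%, 95% Wilson interval 41.6 to 48.3), beside 16.3% of all Ishikawa anchors. In T-47D it was present in 895 of 1279 (70.0%, 67.4 to 72.4), beside 48.8%. With 1 start site per gene the shares were 24.7% and 57.4%, beside 7.75% and 37.2% of all anchors. The promoters belonged to 456 and 1126 genes. A promoter of a long noncoding RNA gene without a protein-coding one was present in 11.6% of the strong Ishikawa anchors, beside 4.12% of all Ishikawa anchors. In T-47D it was 6.02% (4.84 to 7.46), close to the 4.91% of all T-47D anchors. Of the strong anchors with no protein-coding promoter, 285 in Ishikawa were centred between genes and 167 in an intron, and in T-47D 236 and 138. Centres of the other anchors were not placed, so these counts have no background.

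A wide anchor has more room for a promoter, so the shares were also taken within width. In Ishikawa 39.1% of strong anchors of 10 to 15 kb held a promoter against 24.5% of the other anchors of that width, 45.1% against 25.4% at 15 to 20 kb and 49.1% against 35.1% at 20 to 30 kb, the last over only 57 other anchors. In T-47D the shares were 71.8% against 47.1% under 5 kb and 64% against 54.6% at 5 to 10 kb. Among strong anchors those with and without a promoter had median read pairs per kb of 4.11 and 4.12 in Ishikawa and 20.6 and 20.7 in T-47D. Per GATC fragment the T-47D medians were 7.58 (7.43 to 7.89) with a promoter and 8.33 (8.08 to 8.57) without, and the Ishikawa ones 1.61 and 1.59.

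By level of self contact the lines differed in shape. The Ishikawa share with a promoter climbed from 14.3% at 3 to 9 read pairs to 34.5% at 30 to 49, 43.2% at 50 to 99 and 53.5% (45.3 to 61.5) at 100 or more. The T-47D share climbed from 44.7% at 3 to 9 to 72.0% at 30 to 49, was 72.0% at 50 to 99 and was 64.4% (59.1 to 69.3) at 100 or more. Median width climbed along the same classes, from 5.20 to 23.7 kb in Ishikawa and from 2.46 to 4.56 kb in T-47D. The part of width in the difference in shape was not tested.

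**Figure D2:**
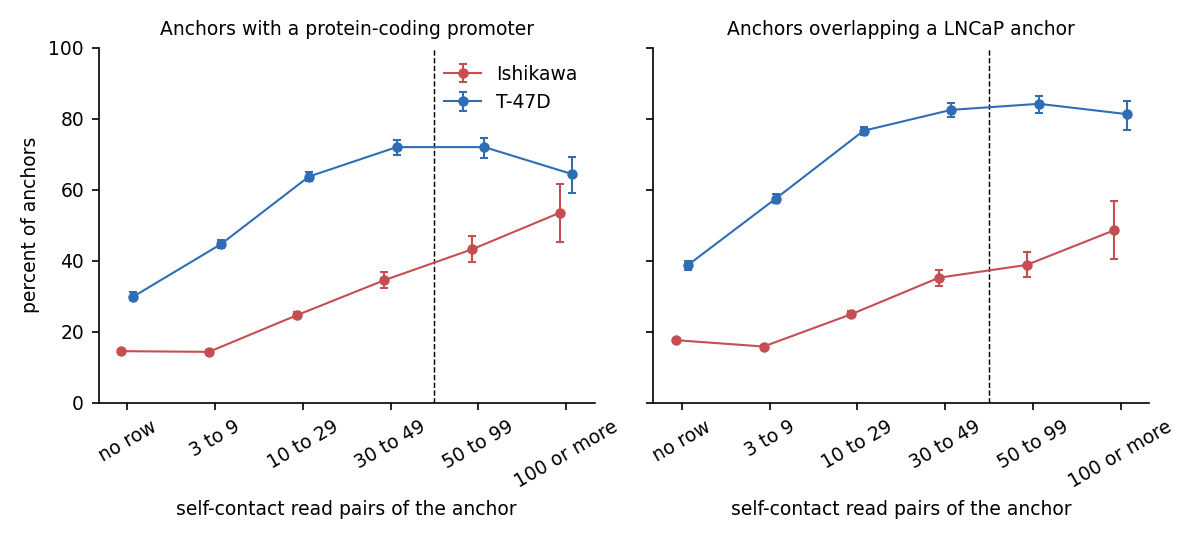
Percent of anchors with a protein-coding promoter (left) and overlapping a LNCaP anchor (right) by class of self-contact read pairs, red for Ishikawa and blue for T-47D, with 95% Wilson intervals and a dashed line at 50 read pairs. The Ishikawa shares keep climbing to the last class (53.5% and 48.6%), whereas from 30 read pairs on the T-47D promoter share goes from 72.0% to 64.4% in the last class and the LNCaP share stays between 81.3% and 84.2%. Median anchor width climbs along the same classes in both lines.

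Lists of genes known for roles in these tissues were read against the strong anchors. Over all 19222 autosomal protein-coding gene names, 2.37% had a promoter in a strong Ishikawa anchor and 5.86% in a strong T-47D anchor. These were 456 of the 11701 names with a promoter in any Ishikawa anchor, and 1126 of 10537 in T-47D. Most lists had an anchor at a larger part of their genes, so their shares do not rest on the same base. Of 14 endometrial and Mullerian factors, 7 had one in Ishikawa (50%) and 1 in T-47D (7.14%). Of 14 autosomal luminal breast factors, 1 had one in Ishikawa (7.14%) and 6 in T-47D (42.9%). The lists were chosen with earlier results of these lines known, and they are counts without a test.

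In Ishikawa the 7 were the transcription factor genes MECOM (279 read pairs, 5.71 per kb), HOXB3 (327), MEIS1 (79, 3.73 per kb), PAX8 (74, 3.92 per kb), HOXA10 (65, 2.30 per kb), TCF7L2 (62, 4.01 per kb) and EMX2 (55, 3.94 per kb). Of these, MECOM, TCF7L2 and EMX2 lie in segments of chromosomes 3 and 10 where strong Ishikawa anchors were dense, at 3.16% and 3.46% of anchors against 0.600% outside the dense segments, and the part of this in the count was not tested. The breast factor was ESR1, the estrogen receptor gene itself, at chr6:152119764-152143515 with 89 read pairs and 3.75 per kb. In T-47D the strongest ESR1 promoter anchor, chr6:152008737-152014072, held 30 read pairs but more per kb, 5.62. Of the 7 genes, the strongest T-47D anchors held fewer read pairs for MEIS1 (31), TCF7L2 (18), HOXB3 (14) and HOXA10 (4). Per kb, MEIS1 was higher in T-47D (6.50), and TCF7L2 (3.44), HOXB3 (3.07) and HOXA10 (1.89) were lower. The strongest T-47D anchors of TCF7L2 and HOXB3 did not overlap the Ishikawa ones. T-47D anchors that overlapped the Ishikawa HOXB3 anchor summed to 65 read pairs. MECOM had 81 in T-47D (9.77 per kb), at another of its start sites, chr3:169373801-169382089.

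In T-47D the 6 breast factors were FOXA1 (692 read pairs, 37.0 per kb), TRPS1 (315, 39 per kb), GATA3 (261, 36.3 per kb), PGR (180, 22.1 per kb), ZNF217 (110, 12.4 per kb) and TBX3 (61, 14.9 per kb). TRPS1 and GATA3 code for GATA family factors and PGR for the progesterone receptor. In Ishikawa GATA3, PGR and ZNF217 had anchors over a promoter with no self-contact row, and TRPS1 had 4 read pairs. Below 50 read pairs in both lines, TFAP2A, TFAP2C and MYB were higher in T-47D (45, 43 and 23), and ELF3 was higher in Ishikawa (15 against 4). Promoter anchors were present only in Ishikawa for GRHL2 and XBP1, and only in T-47D for FOXA1, SPDEF and TBX3.

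Of 25 estrogen response genes, 6 had a promoter in a strong T-47D anchor (24%) and 1 in a strong Ishikawa anchor (4.00%). The T-47D genes were RARA, a retinoic acid receptor gene (307 read pairs, 60.4 per kb), GREB1, an estrogen receptor cofactor gene (266, 37.6 per kb), PGR, the cyclin gene CCND1 (176, 17.8 per kb), STC2 (171, 23.9 per kb) and SIAH2 (69, 14.0 per kb). The Ishikawa gene was IGFBP4, which codes for a binding protein of insulin-like growth factors, with 101 read pairs and 6.87 per kb at chr17:38587522-38602226. Treatment could not be compared, because the DMSO and E2 samples were merged.

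Genes that most cells use were held by strong anchors mainly in T-47D. Of 15 abundant and housekeeping genes, 6 were in T-47D (40.0%), NEAT1 (199 read pairs), MALAT1 (100), RPLP0 (80), HSP90AB1 (77), ACTB (69) and ACTG1 (57), and MALAT1 alone in Ishikawa (56; 6.67%). Of 14 chromatin co-regulator genes, 6 were in T-47D (42.9%) and none in Ishikawa. They were the GSE1 promoter (295 read pairs), the co-repressor subunit gene TBL1XR1 (119), SIN3A (96), the methyltransferase gene KMT2D (88), NCOA3 (81) and ARID1B (79), and the highest in Ishikawa was TBL1XR1 with 41. Immediate early and AP-1 genes gave JUNB (59) and JUND (63) in Ishikawa and KLF6 (146), EGR1 (72) and NR4A1 (62) in T-47D, 8.70% and 13.0% of 23. Epithelial keratin and adhesion genes gave ERBB3 (114), KRT7 (69) and CLDN4 (56) in Ishikawa and ERBB2 (101), ERBB3 (99) and CLDN4 (83) in T-47D, 23.1% of 13 in each line.

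**Figure D3:**
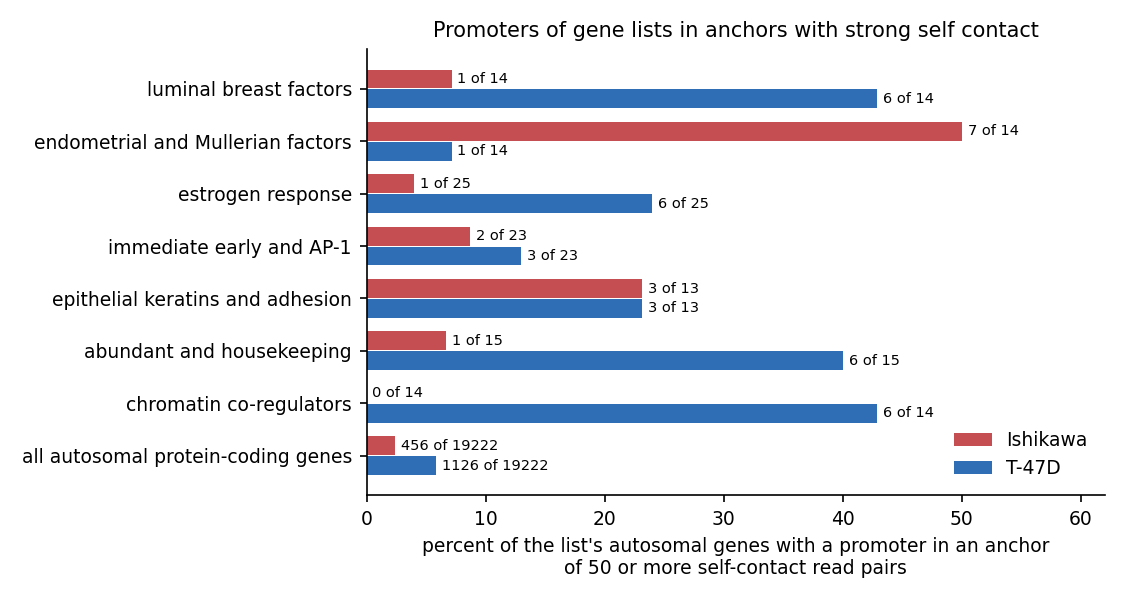
Percent of each list's autosomal genes with a promoter in an anchor of 50 or more self-contact read pairs (horizontal), red for Ishikawa and blue for T-47D, with the count beside each bar and all autosomal protein-coding genes at the bottom. The endometrial and Mullerian bar is long in Ishikawa (50%) and the luminal breast, co-regulator and housekeeping bars are long in T-47D (42.9%, 42.9% and 40.0%).

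Markers of the labelled cell types were strong in part. Of 6 endometrial markers, PAX8, EMX2 and KRT7 had a promoter in a strong Ishikawa anchor and none in a strong T-47D anchor, and the other Ishikawa values were 40 for KRT8, 17 for CDH1 and 12 for SOX17. EMX2 and KRT7 lie in segments of chromosomes 10 and 12 where strong Ishikawa anchors were dense, at 3.46% and 3.28% of anchors. Of 6 luminal breast markers, GATA3, TRPS1 and FOXA1 had one in T-47D and none in Ishikawa, and the T-47D values of TFAP2C and KRT8 were 43 and 30. KRT18 went the other way, with no promoter in a T-47D anchor and 27 read pairs in Ishikawa. None of the markers of other cell types, PTPRC, COL1A1 and VIM, had a promoter in a strong anchor of either line, and the highest was COL1A1 with 7 read pairs in T-47D.

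Anchors with strong self contact were also well connected to other anchors. Their median number of partners was 18 in Ishikawa against 2 over all anchors, and 11 in T-47D against 3. Read pairs to those partners had a median of 183 (174 to 192) against 12 in Ishikawa and 102 (95 to 109) against 14 in T-47D. Within widths of 15 to 20 kb in Ishikawa the medians were 16 partners for strong anchors and 8 for the others, and under 5 kb in T-47D 10 and 2. Spearman's rho between self-contact read pairs and read pairs to other anchors was 0.516 in Ishikawa (n = 47360) and 0.578 in T-47D (n = 14719), and within the strong anchors 0.485 and 0.457.

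Self contact was a larger part of the contacts in T-47D. It made up a median of 43.2% of an anchor's read pairs at the strong T-47D anchors (42.1 to 44.5) and 28.7% at the Ishikawa ones (27.7 to 29.7). It was over 50% of the read pairs at 462 T-47D anchors (36.1%) and 59 Ishikawa anchors (7%). Anchors of 10 to 49 read pairs had medians of 40.5% in T-47D and 30.4% in Ishikawa. Their 90th percentiles were 76.9% and 58.5%, against 69.0% and 47.3% at the strong anchors, so high shares were not particular to the strong anchors. In T-47D the share was higher with a promoter (45.7%) than without (37.3%), and anchors without a promoter had more read pairs to others (median 136 against 92). A single Ishikawa anchor and 4 T-47D anchors had no partner at all.

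The DNA of strong anchors was rich in G and C in both lines. Their median GC content was 45.9% in Ishikawa (45.2 to 46.5) against 41.4% over all anchors, and 52.3% in T-47D (51.7 to 52.9) against 49.5%. CpG dinucleotides numbered 14.9 per kb against 9 in Ishikawa and 36.2 against 24.6 in T-47D. Anchors with a promoter were the richer ones, at 18.9 CpG per kb against 11.1 without in Ishikawa and 42.6 against 12.7 in T-47D. In T-47D anchors of 10 to 49 read pairs reached 35.6 CpG per kb, so this measure hardly moved from there to the strong anchors. At 20 to 30 kb in Ishikawa the strong anchors held 13.4 CpG per kb and the others 9.14.

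Short motifs were counted in 1 kb tiles on both strands. GGGCGG, the core letters that SP and KLF factors bind, was present in 23.1% of tiles of strong Ishikawa anchors against 15% of all Ishikawa tiles, and in 49.4% against 44% in T-47D. Among anchors with a promoter it was 28.9% against 30.0% and 60.9% against 62.2%, and among anchors without one 18.1% (17.3 to 19.0) against 11.7% in Ishikawa and 24.6% (22.5 to 26.8) against 23.2% in T-47D. The AP-1 letters TGANTCA were present in 26.1% against 27.8% in Ishikawa and 22.9% against 23.5% in T-47D, and the FOXA letters TGTTTAC in 12.4% against 14.4% and 12.1% against 13.6%. The palindromic estrogen response element was rare, at 0.113% (0.0708 to 0.182) against 0.0946% in Ishikawa and 0.294% (0.175 to 0.493) against 0.202% in T-47D, within the counting error in both. A match says only that the letters are present.

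Repeated sequence was a small part of most strong anchors, with a median of 4.61% of 50-base windows in Ishikawa against 3.16% over all anchors, and 1.61% in T-47D against 0.685%. In 19 Ishikawa anchors (2.25%) and 19 T-47D anchors (1.49%), 20% or more of the 50-base windows occurred again in the genome, against 2.72% and 3.31% of all anchors. Without anchors of that kind 824 and 1260 strong anchors remained.

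The strong anchors were spread unevenly over the chromosomes. In Ishikawa chromosome 12 held 158 (2.42% of its anchors), chromosome 10 held 130 (2.24%), chromosome 3 held 80 (1.15%) and chromosome 17 held 59 (1.74%), against 0.886% over all autosomes. Chromosomes 9 and 20 were lowest at 0.366% each. The 3 segments known from earlier results to be dense in Ishikawa loops, the distal end of 3q, the distal part of 10q and the stretch from 12p into 12q, held 332 of the 843 (39.4%), at 3.16%, 3.46% and 3.28% of their anchors, and outside them it was 0.600%. Among anchors of 15 kb or more, 59.1% were strong inside the segments and 38.4% outside. The same segments held 142 of the T-47D strong anchors (11.1%). There 9.16% of T-47D anchors were strong, against 5.93% outside, so the T-47D share was raised in them too.

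In T-47D chromosome 11 held 132 (10.7% of its anchors), chromosome 17 held 117 (9.69%), chromosome 12 held 104 (9.46%) and chromosome 14 held 71 (8.70%), against 6.17% over all autosomes. Chromosome 18 had 2 (0.685%), chromosome 13 had 4 (0.988%) and chromosome 2 had 15 of 1231 (1.22%). On those 3 chromosomes the median of anchors with a self-contact row was also low, at 8, 8 and 9 read pairs, against 14 on chromosome 17. The number of copies of each chromosome was not measured, so more copies and more contacts per copy cannot be told apart.

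**Figure D4:**
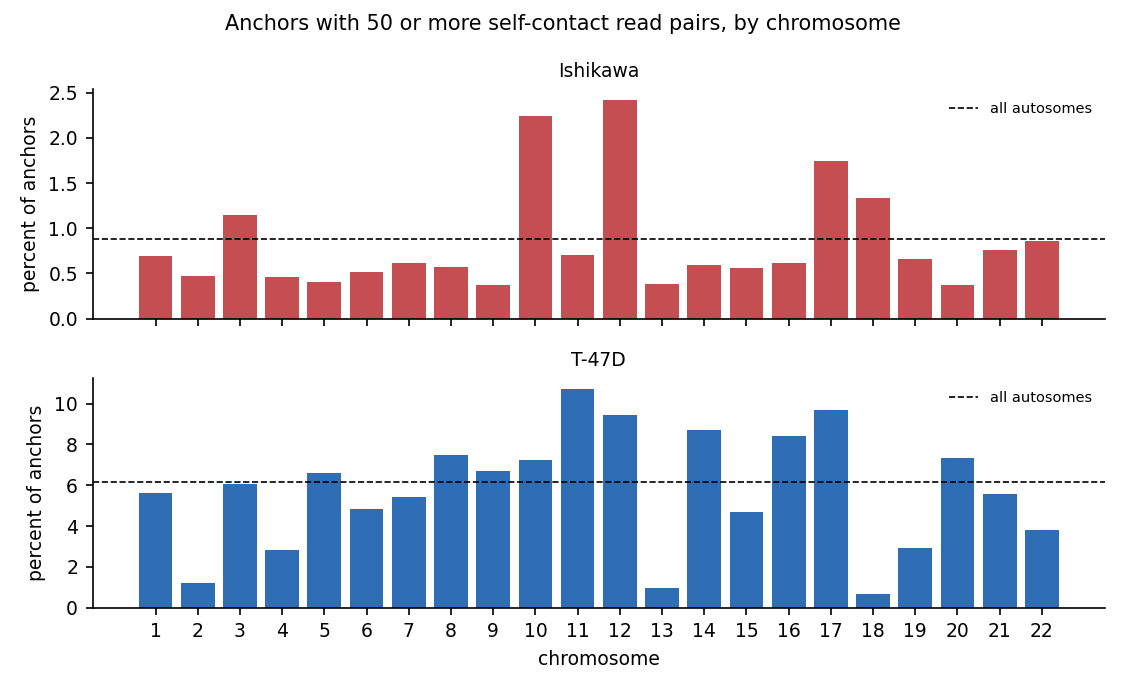
Percent of each autosome's anchors that had 50 or more self-contact read pairs, Ishikawa above and T-47D below on their own scales, with the dashed line at the share over all autosomes (0.886% and 6.17%). Chromosomes 10, 12 and 17 stand above the line in both lines, and chromosomes 2, 13 and 18 are the lowest in T-47D (1.22%, 0.988% and 0.685%).

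Some strong anchors lay close together, but most stood alone, 533 in Ishikawa and 745 in T-47D. With gaps of up to 100 kb joined, the 843 Ishikawa anchors formed 650 groups, 41 of them of 3 or more, and the 1279 T-47D anchors formed 947 groups, 66 of 3 or more. Other anchors were not grouped in this way, so closeness particular to the strong anchors was not tested. The largest Ishikawa group was 13 anchors over 534 kb at chr10:134190159-134724121, with 1275 self-contact read pairs and the promoters of PWWP2B, INPP5A, NKX6-2 and CFAP46. The largest T-47D group was 12 anchors over 368 kb at chr16:85386717-85754366 around GSE1, with 5350 read pairs, from 51 to 3741 each, and a promoter in only 1 of them. In contrast all 11 anchors of the T-47D group at chr9:139794570-140198082 held a promoter, for 13 genes, with 1515 read pairs. The TRPS1 group at chr8:116665322-116983592 had 8 anchors and 1037 read pairs, and the histone gene cluster at chr6:26019667-26254143 had 7 anchors and 732 read pairs.

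The lines shared few strong anchors. Of the 843 in Ishikawa, 42 overlapped a strong T-47D anchor by 1 bp or more (4.98%, 3.71 to 6.67), beside 0.993% of all Ishikawa anchors. Of the 1279 in T-47D, 49 overlapped a strong Ishikawa anchor (3.83%, 2.91 to 5.03), beside 1.87% of all T-47D anchors. The Ishikawa list came in 4 parts that no label ties to a sample, and without part 3 or part 4, which left 416 and 264 strong Ishikawa anchors, this T-47D share was 1.95% and 2.11%. An overlap of 50% of both anchors was met by 1 pair. By width the shares were 4.57% against 1.88% of other Ishikawa anchors of 15 to 20 kb, and 3.12% against 1.69% of other T-47D anchors under 5 kb. At 20 to 30 kb in Ishikawa it was 3.67% against 1.75%, the latter 1 of 57 anchors. The share was highest in the widest Ishikawa anchors, at 28.9% (11 of 38) from 30 kb up, against 0 of only 6 others. In T-47D it was 5.81% against 3.07% at 5 to 10 kb. At 10 to 15 kb it was 14.3% (3 of 21) against 0 of 11 others, and wider T-47D classes held only 6 and 2 anchors.

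Overlap with an anchor of any self contact was more frequent. An anchor of T-47D of any self contact was present at 278 Ishikawa strong anchors (33.0%) and 10.7% of all Ishikawa anchors, and an anchor of Ishikawa at 935 T-47D strong anchors (73.1%) and 50.7% of all T-47D anchors. At the 278, the T-47D anchors summed to a median of 13 self-contact read pairs, and at other Ishikawa anchors with such an overlap to 9. Within widths from 10 to 30 kb the gap was wider. It was 12 against 7 for 10 to 15 kb, 15.5 against 5 for 15 to 20 kb and 11 against 3.5 for 20 to 30 kb, the last over only 12 other anchors. At 5 to 10 kb the order turned, at 3 against 8, over only 6 strong anchors. At the 935, the Ishikawa median was 3, as at the other T-47D anchors. Over the 4247 overlapping pairs of anchors with a self-contact row in both lines, Spearman's rho was 0.056 for read pairs and 0.105 per kb, a description over anchors that differ in width.

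**Figure D5:**
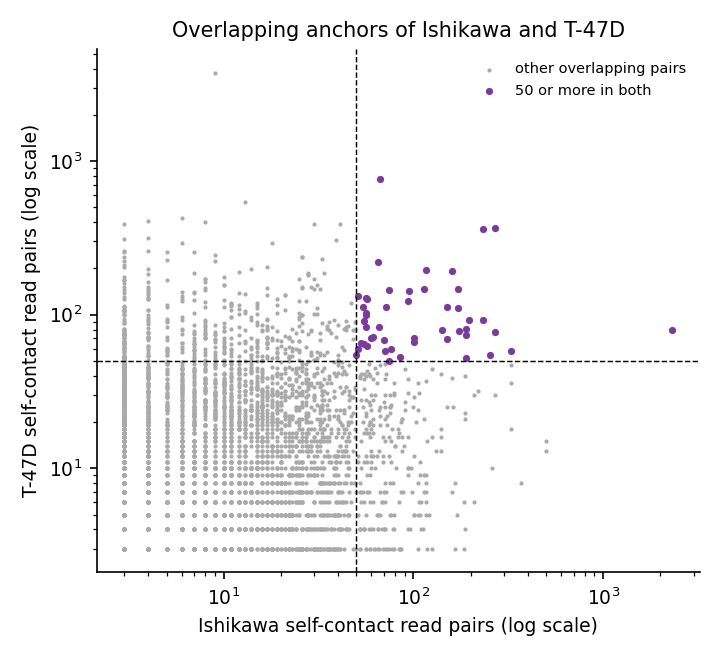
Self-contact read pairs of overlapping anchors, Ishikawa horizontal and T-47D vertical (log scales), with dashed lines at 50 and the 49 pairs with strong self contact in both lines in purple. The points form no diagonal, and the strongest Ishikawa anchor lies at 79 read pairs on the T-47D axis, whereas the strongest T-47D anchor lies at 9 on the Ishikawa axis.

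The 49 overlapping pairs joined 42 Ishikawa and 49 T-47D anchors, 25 of them with a promoter in common and 40 with a LNCaP anchor beneath. The pair ranking highest in both lines was CUEDC1, with 270 read pairs in Ishikawa (6.54 per kb) and 365 in T-47D (55.1 per kb, chr17:55975488-55982112). Between genes near PPARA, a 44.5 kb Ishikawa anchor at chr22:46443225-46487773 with 233 read pairs contained a T-47D anchor with 359. At NDST1, a heparan sulfate enzyme gene, the values were 160 and 192, and between genes near NTMT1 on chromosome 9 they were 171 and 148.

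The next pairs lay at promoters. BCL9L, a gene for a β-catenin cofactor, and the uroplakin gene UPK2 shared an anchor pair with 117 and 196 read pairs. ESYT1, RPL41 and ZC3H10 had 114 and 147, PDE4DIP 95 and 143, AMOTL2, a gene for an angiomotin family scaffold, 150 and 112, and LAMA5, which codes for a laminin chain, 94 and 122. A second T-47D anchor near NTMT1, inside the same Ishikawa anchor, held 111. In each of these pairs the T-47D anchor was the narrower and had the more read pairs per kb. The Ishikawa satellite anchor of chromosome 10 with 2315 read pairs overlapped a T-47D anchor with 79 (6 per kb), and the latter had the most ATTCC units of any strong T-47D anchor, 47.5 per kb against a median of 1.77. At the GSE1 intron anchor with 3741 read pairs in T-47D, Ishikawa had 9. At FOXA1, PRLR and the anchor near TRPC6 Ishikawa had no self-contact read pair.

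From gene lists 4 genes had promoters in strong anchors of both lines. For CLDN4 and MALAT1 the T-47D anchor lay inside the Ishikawa anchor, at chr7:73235243-73248820 and chr11:65252816-65269822, whereas for ERBB3 and MECOM the lines used different anchors. In all, 44 protein-coding genes had a promoter in a strong anchor of both lines, out of 456 in Ishikawa and 1126 in T-47D. Over all 19222 autosomal gene names, 2.37% had one in a strong Ishikawa anchor and 5.86% in a strong T-47D anchor.

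LNCaP, which gave no self-contact rows, still had anchors at many of these regions. One was present at 341 of 843 strong Ishikawa anchors (40.5%, 37.2 to 43.8), beside 18.4% of all Ishikawa anchors, and at 1067 of 1279 strong T-47D anchors (83.4%, 81.3 to 85.4), beside 60.3%. Where 50% of both anchors had to overlap, the T-47D share was 58.3% beside 42.4%, but the Ishikawa share was 3.68% beside 6.94%, so that order turned. Within width, it was 44.8% against 27.2% at 15 to 20 kb in Ishikawa and 85.1% against 58.8% under 5 kb in T-47D. The LNCaP anchors at strong T-47D anchors summed to a median of 153 read pairs to other LNCaP anchors, against 59 at other T-47D anchors, and at strong Ishikawa anchors to 75 against 48. At FOXA1, a pioneer factor in prostate as well, this sum was 6348.

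The 4 parts of the Ishikawa list were sorted separately over the same anchors, and no label says which sample or treatment a part holds. Parts were not read as replicates. The strong anchors were chosen on the sum of the parts, so a row in most parts came with the choice: 825 (97.9%) had one in all 4 and the other 18 in 3. The median strong anchor held 16, 8, 18 and 26 read pairs in parts 1 to 4, and the largest share that any anchor drew from its strongest part was 58.9%. The HOXB anchor, for instance, had 70, 30, 137 and 90, MECOM 84, 44, 48 and 103, and the satellite anchor of chromosome 10 had 614, 536, 459 and 706. Spearman's rho between parts over the 843 anchors ran from 0.281 to 0.539.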

How the data were processed

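H3K27ac HiChIP loop lists of 3 cell lines were used. Per the study's methods, the authors aligned reads to hg19 with HiC-Pro, called loops with hichipper, removed loops with under 3 reads or a high false discovery rate, and combined DMSO and E2 loops in Ishikawa. The deposited values are raw counts of read pairs per pair of anchors, scaled neither for depth nor for DNA copy number. The Ishikawa list repeats its anchors in 4 separately sorted parts, which were summed.

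Rows joining an autosomal anchor to itself were summed per anchor, and anchors with 50 or more read pairs were kept. The anchors and gene lists were chosen with earlier results of these data known. Promoters were 500 bp centred on GENCODE 44 start sites on GRCh37, and anchors overlapped when they shared 1 bp. A 50-base window was repeated when it occurred again in the genome. Shares carry 95% Wilson intervals and medians 95% binomial intervals, for counting error only. Scripts (Python 3.11.15, pandas 2.3.3, scipy 1.17.1) were tested on simulated data. With 1 list per line no test between lines or treatments could be made. Alternatives were other minimums, choice per kb, other promoter definitions, a 50% overlap, and lists without 1 part, repeated sequence or dense segments.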

Additional observations from a re-analysis of the deposited data

Results flagged for a closer look

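These values lie outside the autosomes, so no comparison above used them. On chromosome X, 1 of 172 Ishikawa anchors had 50 or more self-contact read pairs, with 58, and 7 of 426 T-47D anchors did, with up to 80. An Ishikawa anchor on chromosome Y, at chrY:58970683-58984901, held 46 self-contact read pairs, and a T-47D anchor at chrY:21152706-21155673 held 4. In T-47D the mitochondrial genome formed a single anchor from base 1 to 16571 with 165 self-contact read pairs. The reads behind these anchors were not analysed here.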

How the results depend on the processing

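No paired analysis was possible because each line's samples were merged into 1 list before deposit. Of 86 alternatives computed, 45 stayed within the counting error of the value, or for counts within 1.5 times, and 41 did not. A minimum of 30 read pairs gave 2671 Ishikawa and 2875 T-47D anchors, and one of 100 gave 142 and 337. At these minimums the share of Ishikawa anchors with a promoter was 37.8% and 53.5%, the Ishikawa median per kb 3.27 and 5.69, the T-47D median per kb 14.6 and 33.0, the share of T-47D anchors overlapping a strong Ishikawa anchor 6.37% and 2.37%, and the Ishikawa share at LNCaP anchors 36.8% and 48.6%. The T-47D promoter share was 64.4% at 100. Choosing the same number per kb, which shared 481 Ishikawa and 960 T-47D anchors with the choice by read pairs, gave an Ishikawa promoter share of 40.3%, medians of 4.52 and 21.6 per kb and an Ishikawa share at LNCaP anchors of 36.3%. With 1 start site per gene the promoter shares were 24.7% and 57.4%. An overlap of 50% of both anchors left 0.0782% of T-47D and 0.119% of Ishikawa anchors overlapping between the lines, and 3.68% and 58.3% of Ishikawa and T-47D anchors at LNCaP anchors. Leaving out part 1, 3 or 4 of the Ishikawa list, which removes read pairs, gave 465, 416 and 264 Ishikawa anchors and 2.66%, 1.95% and 2.11% of T-47D anchors overlapping one. Leaving out part 1, 2, 3 or 4 gave medians of 3.65, 3.82, 3.47 and 3.37 per kb. Without part 4 the Ishikawa promoter share was 53.8%, the share overlapping a strong T-47D anchor 7.95% and that at LNCaP anchors 47.7%. Both further alternatives were chosen after seeing the data: without the dense segments 511 Ishikawa anchors remained, with a median of 3.87 per kb and 2.58% of T-47D anchors overlapping one, and without repeated sequence all 10 values stayed within those limits. The causes were not tested. In Ishikawa narrow anchors rarely reached 50 read pairs, and unequal depth, DNA copy number, sonication and read length were not corrected for.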
